A study of Homo sapiens with 15 samples.

Results

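Gene expression was compared between U2OS cells released from a thymidine block into S-phase and U2OS cells held in the block, both in the presence of Nutlin. U2OS is a human osteosarcoma line with wild-type p53, and Nutlin occupies the p53 pocket of MDM2, a ubiquitin ligase that otherwise drives p53 to degradation. The comparison uses 4 of the 15 RNA-seq libraries of the series, chosen by their labels: 2 of released cells (S-phase, Nutlin) and 2 of blocked cells (non-released, Nutlin). The question is which changes at release still occur with p53 active. Both groups had thymidine at 2 mM for 16 h, a gap of 8 h without it, and thymidine again for 16 h. Nutlin was added 4 h before the thymidine was washed out or the block was continued, and released cells kept it for the 4 h up to harvest. The labels print its dose as 10 with the prefix of the unit missing. Cells given DMSO, the vehicle, went through the same steps, with 3 released and 2 blocked libraries. The sources used here do not say when blocked cells were harvested or whether they were washed and given fresh medium. Entry into S-phase, the wash with fresh serum-containing medium and a longer exposure to Nutlin therefore cannot be told apart in this comparison.

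Thymidine in excess starves cells of dCTP and stops DNA replication, so cells collect at the border of G1 and S and resume synthesis when it is removed. Replicating cells must make new histones along with DNA, and the genes of the replication-dependent histones, which end in a stem-loop in place of a poly(A) tail, are switched on with S-phase. Active p53 raises p21, the product of CDKN1A, which inhibits the cyclin-dependent kinases that drive entry into S-phase and mitosis.

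With Nutlin the libraries held 15299533 and 20186510 assigned reads in blocked cells and 12051590 and 10250815 in released cells, within a range of 6050828 to 23382502 over all 15. The released side is the shallower one, and the part of depth in the results was not tested. Values below are normalised reads, which are reads per gene after division by the size factor of the library, given as replicate 1 and replicate 2. Differences are released minus blocked on the deposited log2 scale with the standard error (SE), on which changes of genes with few reads are compressed. A gene was called at an adjusted p under 0.05 in limma, fitted over all 15 libraries and 14298 genes. Of the other libraries 2, DMSO asynchronous replicate 3 and DMSO S-phase replicate 2, stand apart from their groups and widen the spread shared by all comparisons, so counts without them are given as those from 13 libraries. The labels do not say whether replicates came from separate cultures, so the p-values cover the spread among these libraries, which may be technical.

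Bone and mesenchymal markers summed to between 65760 and 66291 normalised reads in blocked cells and between 73427 and 78502 in released cells. Most of the sum was VIM, SPARC and FN1. Of the 15, 2, SP7 and TWIST1, were at 0 in all 4 libraries, and BGLAP and COL1A2 had at most 0.7 and 6.4 normalised reads. Epithelial markers summed to 13673 to 13902 and 16556 to 17751, mostly KRT8 and KRT18. Blood markers (191 to 297 and 292 to 342, 4 of 16 at 0) and endothelial markers (196 to 208 and 205 to 222, 1 of 10 at 0) had low sums. Their highest members were above the floor: CD68 (58.0 to 119) and CORO1A (64.5 to 116) for blood, and ERG (89.7 to 111) for endothelium. No marker was called. CDKN1A had 15310 and 15847 normalised reads in blocked and 14907 and 18432 in released cells with Nutlin. With DMSO it had 5506 and 5870, then 4393, 3433 and 4598. MDM2, which p53 also activates, had 28290 and 29209, then 24910 and 26827 with Nutlin, and 8745 and 8555, then 7230, 5687 and 7063 with DMSO. Every Nutlin library was above every DMSO library for both genes, in block and after release. Their differences at release under Nutlin were 0.09 ± 0.60 (SE) for CDKN1A and -0.15 ± 0.52 for MDM2, with adjusted p = 0.969 and 0.932. These standard errors were 0.09 and 0.08 with 13 libraries, and the sign for CDKN1A turned with quantile normalization (-0.23) and without released replicate 2 (-0.06).

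Release under Nutlin changed 348 of 14298 genes (2.43%). Of these, 229 rose (1.6%) and 119 fell (0.832%). With 13 libraries 901 genes rose (6.3%) and 641 fell (4.48%), 10.8% in both directions, and all 348 genes were among them. Leaving out one of the 4 libraries leaves a single library on its side, and the number called was then 71 without blocked replicate 1, 96 without blocked replicate 2, 121 without released replicate 1 and 107 without released replicate 2. A core of 60 genes was called in the same direction in all 14 fits tried, of which 56 rose and 4 fell. Of the 56, 32 were replication-dependent histone genes. All 60 were also called in the release with DMSO, where 4.11% of all genes were called higher and 2.89% lower.

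**Figure D1:**
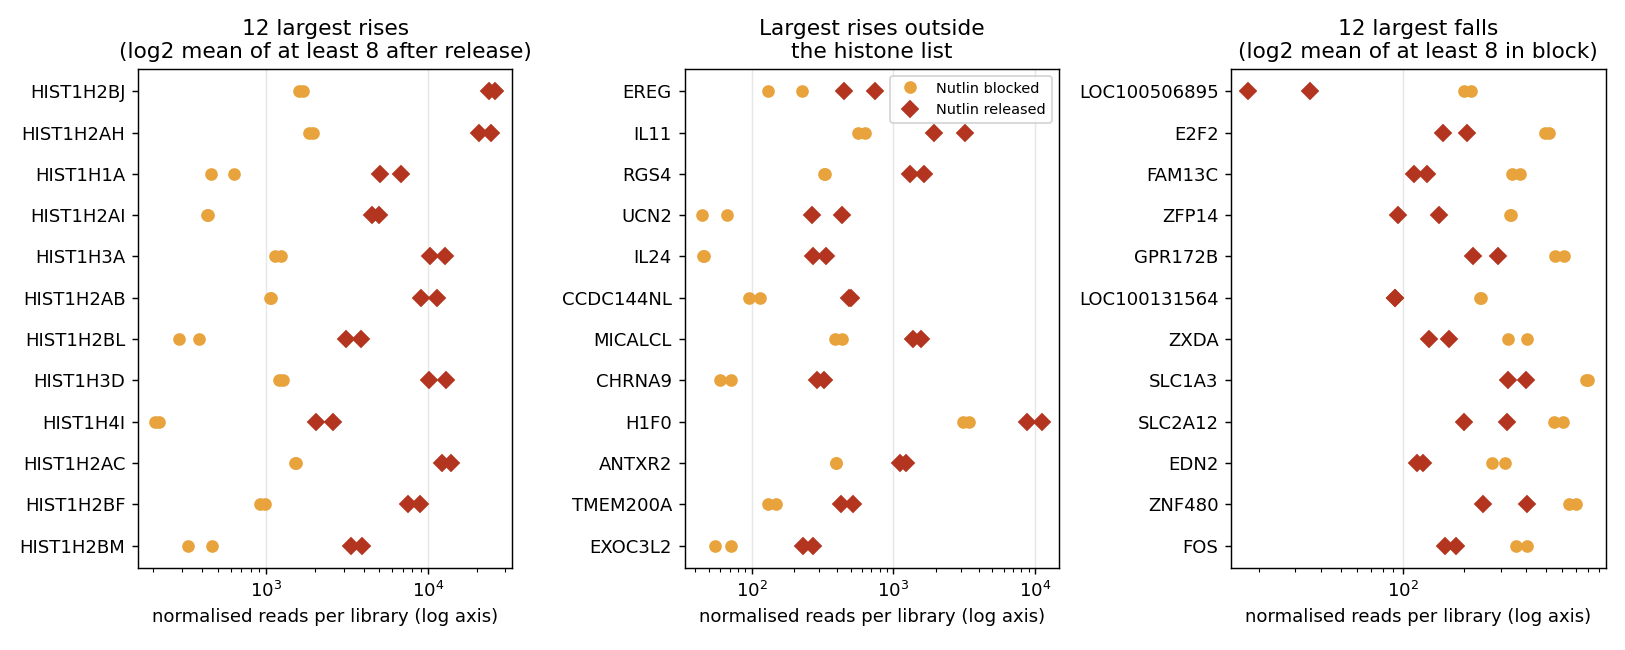
Normalised reads per library on a log axis for the 12 largest rises, the 12 largest rises outside the histone list and the 12 largest falls at release under Nutlin, with blocked libraries as circles and released libraries as diamonds. Genes were taken from those called, with no overlap between the groups and a mean of at least 8 on the log2 scale in the higher group, so the gap between the groups was set by the choice. Values run from 26081 and 23749 against 1683 and 1584 for HIST1H2BJ to 181 and 161 against 404 and 356 for FOS.

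The replication-dependent histone genes were the strongest change. Of 62 genes on the list 43 passed the filter on low values, 37 rose (86% of those tested), none fell and 6 were not called. In total they took 0.404% and 0.400% of reads in the blocked libraries and 2.70% and 2.26% in the released ones. Their median difference was 2.59, against 0.01 over all genes tested. In the release with DMSO 40 of the 43 rose, against 4.11% of all genes, with a median of 2.41. The filter keeps a gene that is high in 1 group alone, so the members that passed are not an even sample of the list. The other 19 had at most 9 reads in any of the 4 libraries, among them HIST1H1B with at most 1 read and HIST1H1D with 0 reads in each. Nothing in the labels says whether poly(A) RNA was selected.

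Core histones form the octamer around which DNA is wound, and linker H1 sits where DNA enters and leaves it. HIST1H2BJ, an H2B gene, rose most: 1683 and 1584 normalised reads in block became 26081 and 23749 after release, a 15.3-fold rise (3.88 ± 0.34, adjusted p = 2.42e-05). HIST1H2AH, an H2A gene, went from 1930 and 1847 to 24341 and 20539 (3.53 ± 0.29, adjusted p = 1.65e-05). Both released libraries were far above both blocked ones for each gene.

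The most abundant member was the linker gene HIST1H1C, at 9769 and 10053 normalised reads in block and 63068 and 52850 after release (2.54 ± 0.23, adjusted p = 2.96e-05). A second linker gene, HIST1H1A, rose from 632 and 457 to 6842 and 5044 (3.32 ± 0.23, adjusted p = 5.07e-06). By class, 3 of 3 H1 genes, 11 of 11 H2A, 12 of 13 H2B, 4 of 7 H3 and 7 of 9 H4 genes tested rose, with median differences of 2.60, 2.82, 2.43, 2.59 and 2.19. The 12 largest rises of the comparison were all on this list.

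The 6 members not called were HIST1H4C, HIST1H4J, HIST1H3C, HIST1H3E, HIST1H3J and HIST1H2BO. HIST1H4C was well covered and went from 1863 and 1918 to 5524 and 4923 normalised reads with no overlap (1.44 ± 0.36, adjusted p = 0.0514). The other 5 had at most 35.5 normalised reads in any Nutlin library. Histone genes share long stretches of sequence, and single members are uncertain where reads of 1 copy could be assigned to another. In each of the 14 fits between 33 and 41 histone genes rose and none fell.

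The start sites of these genes are shown because many members moved together. A window from 250 bases before to 50 after the start was found in RefSeq (GRCh38.p14) for 10916 of the 14298 genes tested and for 31 of the 37 histone genes that rose. The 10916 are 76.3% of the genes tested, under the 80% set as a minimum, so a comparison with all genes is void and the shares describe only the windows found. CCAAT on either strand was in 83.9% of the 31 windows and in 36.3% of the 10916. TATAAA on either strand was in 74.2% and 5.76%, and both together in 64.5% and 2.45%. Over the 35 members tested that had a window, called or not, the shares were 82.9%, 74.3% and 62.9%. The shares thus describe the list and do not set apart the members that rose. E2F elements, written TTTGGCGC and TTTCCCGC and searched on both strands, were in none of the 31 and in 3.62% of the 10916. No shares are given for genes that fell or for genes outside the histone list that rose, since 71.4% and 76% of them had a window. Windows of an H2B, a linker and a second H2B gene follow, on the minus strand at chr6:27132746-27133045, chr6:26017738-26018037 and chr1:149886633-149886932. Capitals mark CCAAT and TATAAA or their reverse complements, and merge where matches overlap.
HIST1H2BJ: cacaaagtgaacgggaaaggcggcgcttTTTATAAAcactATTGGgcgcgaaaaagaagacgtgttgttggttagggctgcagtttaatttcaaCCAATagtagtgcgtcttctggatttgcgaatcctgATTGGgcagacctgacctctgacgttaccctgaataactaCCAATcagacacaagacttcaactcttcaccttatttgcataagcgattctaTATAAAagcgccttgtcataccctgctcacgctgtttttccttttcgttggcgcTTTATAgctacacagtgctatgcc
HIST1H1A: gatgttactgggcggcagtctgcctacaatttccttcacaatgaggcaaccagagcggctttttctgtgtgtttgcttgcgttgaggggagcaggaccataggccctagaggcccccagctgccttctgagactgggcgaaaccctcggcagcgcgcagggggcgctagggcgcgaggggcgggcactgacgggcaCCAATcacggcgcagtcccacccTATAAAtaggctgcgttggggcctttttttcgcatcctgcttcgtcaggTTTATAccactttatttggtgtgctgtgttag
HIST2H2BE: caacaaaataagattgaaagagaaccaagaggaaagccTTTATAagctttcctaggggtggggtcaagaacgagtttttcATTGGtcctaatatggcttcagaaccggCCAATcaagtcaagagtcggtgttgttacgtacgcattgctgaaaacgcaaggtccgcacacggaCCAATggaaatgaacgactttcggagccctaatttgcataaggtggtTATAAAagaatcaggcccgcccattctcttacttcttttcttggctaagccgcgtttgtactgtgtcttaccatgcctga
All 3 windows hold TATAAA 28 to 31 bases before the start and at least 1 CCAAT or its complement further upstream. That of HIST1H4B, which also rose, holds TATAAA but no CCAAT on either strand. HIST2H2BE itself went from 1177 and 1174 to 8101 and 8501 normalised reads (2.76 ± 0.20, adjusted p = 5.07e-06).

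The stem-loop that stands in for a poly(A) tail was searched in the last 120 bases of GENCODE v29 transcripts, as a stem of 6 paired bases starting with GG around a loop of 4 starting with TT. It was found in 9 of the 43 histone genes tested and in 6 of 12627 other genes with a transcript (0.0475%). Of the 9, 8 rose, against 37 of all 43. A match needs this exact form near the annotated end of a transcript, so members without a match are not shown to lack a stem-loop. The 3 forms found are shown with stem and loop in capitals.
HIST1H2BL: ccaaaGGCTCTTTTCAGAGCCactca
HIST1H4B: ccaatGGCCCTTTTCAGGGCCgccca
HIST1H2BD: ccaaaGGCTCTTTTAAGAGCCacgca
HIST1H2BL rose from 384 and 287 to 3824 and 3093 normalised reads (3.17 ± 0.26, adjusted p = 1.65e-05). HIST1H4B rose from 1850 and 1656 to 15355 and 13351 (2.99 ± 0.35, adjusted p = 0.000295). HIST1H2BD rose by 2.36 (adjusted p = 0.000616).

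Histone genes that are not confined to S-phase were chosen after their values were seen. H1F0, which encodes a linker histone made outside S-phase too, rose from 3093 and 3435 to 8797 and 11177 normalised reads (1.59 ± 0.16, adjusted p = 6.8e-05) and is one of the 60 core genes. H3F3B, which encodes a replacement H3 histone, went from 8224 and 8396 to 13858 and 13328 (0.71 ± 0.14, adjusted p = 0.0167, up to 0.169 over the alternatives). H2AFZ, which encodes H2A.Z, had 8600 and 9133 in block and 11053 and 9229 after release and was not called (0.19 ± 0.18, adjusted p = 0.692).

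The 4 largest rises outside the histone list, taken after their values were seen, were RGS4, IL11, UCN2 and IL24. RGS4, which shortens G protein signals, went from 323 and 331 to 1321 and 1643 normalised reads (2.00 ± 0.38, adjusted p = 0.0142). IL11, a cytokine that signals through gp130, went from 561 and 633 to 1924 and 3194 (1.96 ± 0.35, adjusted p = 0.0102). UCN2, a peptide ligand of corticotropin-releasing factor receptors, went from 44.4 and 67.5 to 265 and 432 (1.91 ± 0.20, adjusted p = 0.000113). IL24, a cytokine of the IL-10 family, went from 46.4 and 45.2 to 271 and 334 (1.91 ± 0.23, adjusted p = 0.00045).

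Both released libraries were above both blocked ones in each, as the choice of genes required. The next in size were CCDC144NL (1.81), MICALCL (1.71), CHRNA9 (1.64), H1F0 (1.59) and EREG (1.48). The call for CHRNA9 was lost without any one of the 4 libraries (adjusted p = 0.0542 to 0.112), and that for MICALCL without blocked replicate 1, blocked replicate 2 or released replicate 2 (adjusted p = 0.068, 0.0795 and 0.0768). UCN2 and IL24 were among the 60 core genes. The call for RGS4 was lost without any one of the 4 libraries (adjusted p = 0.0672 to 0.144). That for IL11 was lost without blocked replicate 1, blocked replicate 2 or released replicate 2 (adjusted p = 0.125, 0.0694 and 0.113). With DMSO the same genes rose by 2.46 (RGS4), 2.05 (IL11), 2.12 (UCN2) and 1.98 (IL24).

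Further core genes outside the histone list were CCDC144NL, SH2B3, an adaptor of cytokine receptors (1.36), LAMB3, a laminin chain (1.16), and FRMD4A (1.14). They also hold the guidance ligand SEMA3A, at 641 and 607 against 1476 and 1314 normalised reads (1.09 ± 0.15, adjusted p = 0.00102), and its co-receptor NRP1, at 1419 and 1493 against 2745 and 2798 (0.90 ± 0.11, adjusted p = 0.000453). ETS1, a transcription factor, rose by 1.02, and CYP24A1, which breaks down active vitamin D, by 0.97. PDGFRA, a receptor of platelet-derived growth factor, went from 233 and 205 to 443 and 434 (0.86 ± 0.11, adjusted p = 0.000779), and ATP2B1, a calcium pump of the plasma membrane, rose by 0.74.

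The 119 genes that fell did so by less. The largest fall was in LOC100506895, from 215 and 200 normalised reads to 35.5 and 17.7 (-1.86 ± 0.21, adjusted p = 0.000194), a 7.8-fold fall. E2F2, an activator of genes for DNA synthesis, fell from 494 and 516 to 158 and 205 (-1.26 ± 0.18, adjusted p = 0.00171). SLC1A3, a glutamate transporter, fell from 804 and 780 to 401 and 326 (-1.02 ± 0.13, adjusted p = 0.000861). LOC100506895, E2F2, SLC1A3 and LOC100131564 (-1.04) were the 4 genes that fell in all 14 fits.

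The start of E2F2 is shown because its window holds an E2F element, one of 395 of 10916 windows that do. It lies at chr1:23531184-23531483 on the minus strand, and capitals mark the element, which begins 42 bases before the start.
E2F2: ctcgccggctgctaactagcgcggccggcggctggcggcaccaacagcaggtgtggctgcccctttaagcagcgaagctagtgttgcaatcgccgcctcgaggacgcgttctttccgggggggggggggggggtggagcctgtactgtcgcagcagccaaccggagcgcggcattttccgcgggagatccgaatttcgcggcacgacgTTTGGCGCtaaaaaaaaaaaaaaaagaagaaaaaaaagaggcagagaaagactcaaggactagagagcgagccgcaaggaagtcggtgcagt
The zinc finger genes ZFP14, ZXDA and ZNF480 fell by 1.17, 1.03 and 0.97, and FAM13C by 1.23. GPR172B, a riboflavin transporter, fell by 1.04, SLC2A12, a glucose transporter, by 1.02, and the peptide ligand EDN2 by 1.00. For each of these 7 genes the call was lost without blocked replicate 1 (adjusted p = 0.055 to 0.332). FAM13C, SLC2A12 and EDN2 were lost without any one of the 4 libraries, GPR172B also without blocked replicate 2 or released replicate 1, ZFP14 and ZXDA also without released replicate 2, and ZNF480 also without blocked replicate 2 or released replicate 2.

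**Figure D2:**
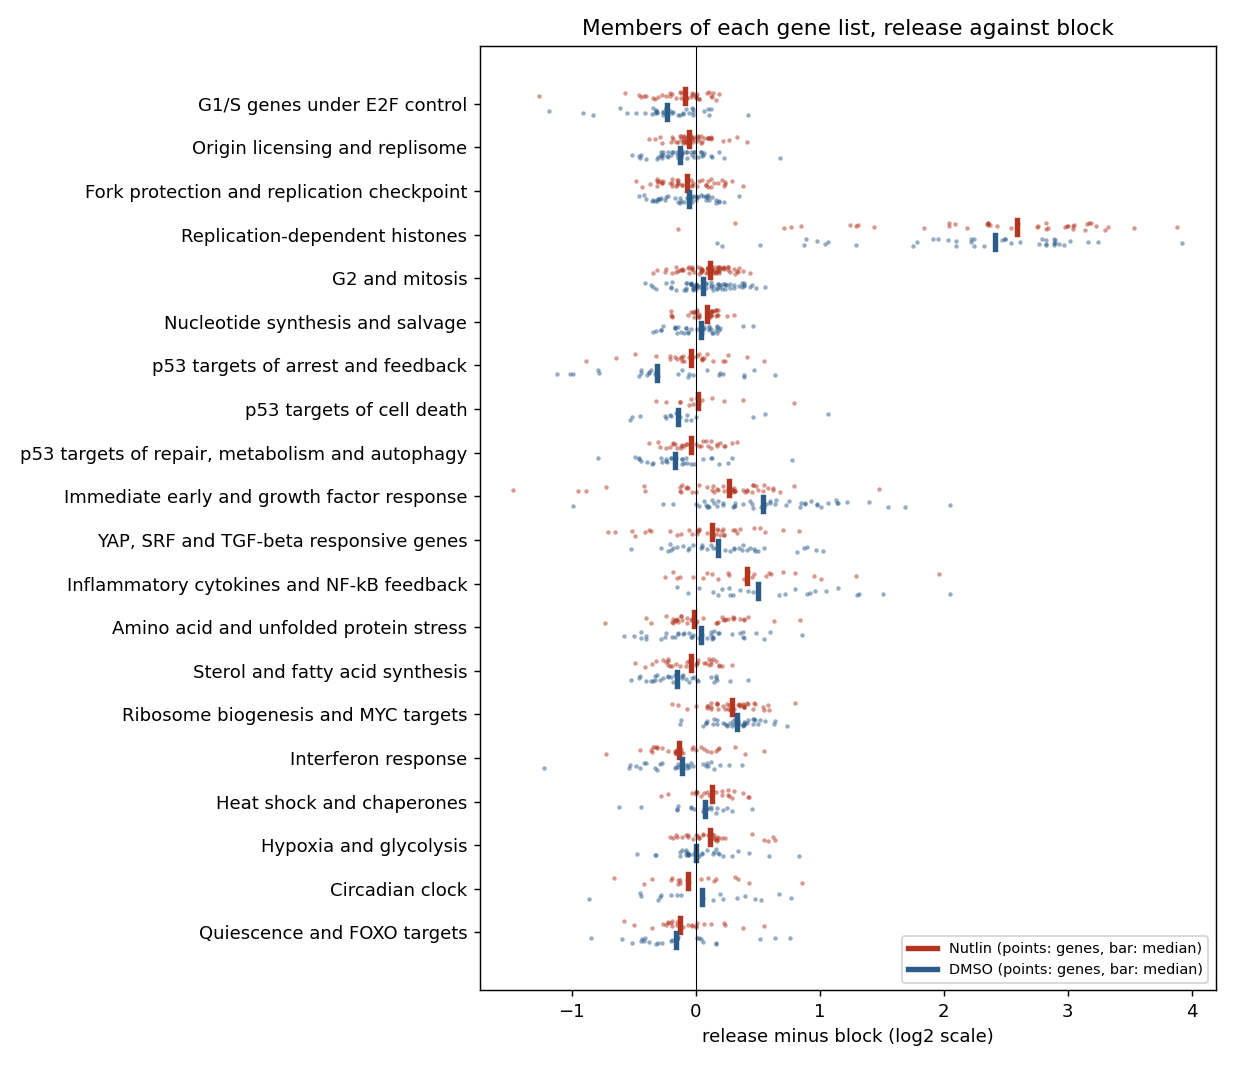
Difference between released and blocked cells on the log2 scale for each tested member of 20 gene lists, with Nutlin in red and DMSO in blue, points for genes and bars for list medians. Replication-dependent histones stand apart with medians of 2.59 and 2.41, and every other list has medians between -0.31 and 0.54.

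Of 40 G1/S genes under E2F control none rose and 2 fell, E2F2 and FAM111B, against 1.6% and 0.832% of all genes, and the list's median was -0.08. FAM111B, a protease gene linked to replication, went from 3071 and 2758 to 2064 and 1832 normalised reads (-0.57 ± 0.12, adjusted p = 0.0267), a call lost without any one of the 4 libraries (adjusted p = 0.0686 to 0.293). With 13 libraries 9 of the 40 fell, against 4.48% of all genes. With DMSO 1 rose and 6 fell, against 4.11% and 2.89%, with a median of -0.23.

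CCNE2, which encodes cyclin E2 of the G1/S transition, had 1098 and 1143 in block and 870 and 774 after release with Nutlin (-0.42 ± 0.15, adjusted p = 0.161). With DMSO it fell from 1278 and 1228 to 675, 537 and 723 (-0.91, adjusted p = 0.00112). Its difference between the releases was 0.49 with an unadjusted p = 0.0289 and did not pass adjustment. CCNE1 and E2F1 differed by -0.33 and -0.46 under Nutlin (adjusted p = 0.292 and 0.0836). CDC6, a licensing factor, and SLBP, which binds the histone stem-loop, differed by -0.09 and 0.00 (adjusted p = 0.788 and 1.0), the latter turning to -0.01 with voom and -0.04 with quantile normalization.

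No call under Nutlin was made among 48 licensing and replisome genes, 47 fork protection genes, 38 genes that make nucleotides and 70 G2 and mitotic genes, against 2.43% of all genes. That background leaves few calls to be made in lists of this size, so the absence of calls does not set these lists apart. Their medians were -0.05, -0.07, 0.09 and 0.11. At an unadjusted p under 0.05 there were 3 (6.25%), 12 (25.5%), 0 and 8 (11.4%), against 2257 of all 14298 genes (15.8%), and of the 12 fork protection genes 8 were lower and 4 higher. With 13 libraries 5, 5, 0 and 4 were called, against 10.8% of all genes. PCNA, the sliding clamp of replication, had 8711 and 9596 in block and 8965 and 8610 after release (-0.06 ± 0.12, adjusted p = 0.886, and 0.01 without blocked replicate 2). RRM2, the regulated subunit of ribonucleotide reductase, had 10433 and 9439, then 11277 and 10500 (0.13, adjusted p = 0.743, and -0.15 with quantile normalization). The mitotic genes CCNA2, CCNB1 and PLK1 differed by 0.16, 0.32 and 0.23 (adjusted p = 0.754, 0.399 and 0.523).

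Of the p53 targets, 1 of 28 in arrest and feedback, 0 of 16 in cell death and 0 of 32 in repair, metabolism and autophagy was called, against 2.43% of all genes. That background comes to less than 1 gene in each list, so these counts of calls do not set the lists apart. The medians were -0.03, 0.02 and -0.04, and -0.31, -0.15 and -0.17 with DMSO, where 3, 1 and 2 of them fell and 1, 3 and 1 rose, against 2.89% and 4.11% of all genes. At an unadjusted p under 0.05 the 3 lists had 1, 2 and 0 genes under Nutlin, against 15.8% of all genes. The fit of 13 libraries called 3, 3 and 0, against 10.8% of all genes. The 1 called was ATF3, a stress-induced transcription factor that is also on the immediate early and growth factor list. It went from 961 and 963 to 502 and 490 (-0.88 ± 0.17, adjusted p = 0.0139). ATF3 also fell with DMSO (-0.99, adjusted p = 0.00158). Its call under Nutlin was lost without any one of the 4 libraries (adjusted p = 0.0794 to 0.14).

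Immediate early genes are switched on within minutes of a growth factor or stress signal. The list used here also holds growth factor response genes. Of its 50 members tested, 2 rose, EREG and ETV4, and 3 fell, FOS, ATF3 and EGR2, against 1.6% and 0.832% of all genes. The difference was positive in 35 and negative in 15, and with 13 libraries 10 rose and 4 fell, against 6.3% and 4.48% of all genes. EREG, a ligand of the EGF receptor, rose from 131 and 227 to 450 and 738 normalised reads (1.48 ± 0.22, adjusted p = 0.00221), and the call was lost without blocked replicate 1 (adjusted p = 0.0525). FOS, a subunit of the AP-1 factor, fell from 404 and 356 to 181 and 161 (-0.95 ± 0.18, adjusted p = 0.0142), lost without any one of the 4 libraries (adjusted p = 0.0659 to 0.187). The rise of ETV4, an ETS factor (0.55, adjusted p = 0.0214), was also lost without any one of them (adjusted p = 0.0607 to 0.196), and EGR2, at 44.4 and 39.3 against 20.5 and 6.4 normalised reads, fell by 0.72 (adjusted p = 0.044, up to 0.318 over the alternatives).

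The DMSO libraries gave another picture for FOS, at 132 and 123 in block and 132, 130 and 152 after release (0.08, adjusted p = 0.826). Blocked Nutlin cells were thus the high group, and released Nutlin cells lay nearer to the DMSO libraries but above all of them. EGR1, a zinc finger factor, had 564 and 257 in block and 104 and 108 after release with Nutlin (-1.47 ± 0.47, adjusted p = 0.125), a gap without overlap but with a wide spread in block. With DMSO it had 103 and 77.6, then 50.4, 198 and 29.7.

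With DMSO 22 of the 50 genes on the immediate early and growth factor list rose and 1 fell, against 4.11% and 2.89% of all genes. The list's median was 0.54 with DMSO and 0.27 with Nutlin, and the median difference between the releases was -0.38, against 0.02 over all genes. No gene of the 14298 was called in this difference (0.0%) in limma or in any alternative fit, where the lowest adjusted p was 0.237. At an unadjusted p under 0.05 there were 321 genes in all (2.25%), 197 lower (1.38%) and 124 higher (0.867%) with Nutlin. Of the 50, 10 (20%) were in that group, all lower with Nutlin: FOS, ETV5, MYC, MAFF, FOSL1, IER2, DUSP2, DUSP5, TRIB1 and NR4A1. Without released Nutlin replicate 2 the list's median under Nutlin was 0.11.

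**Figure D3:**
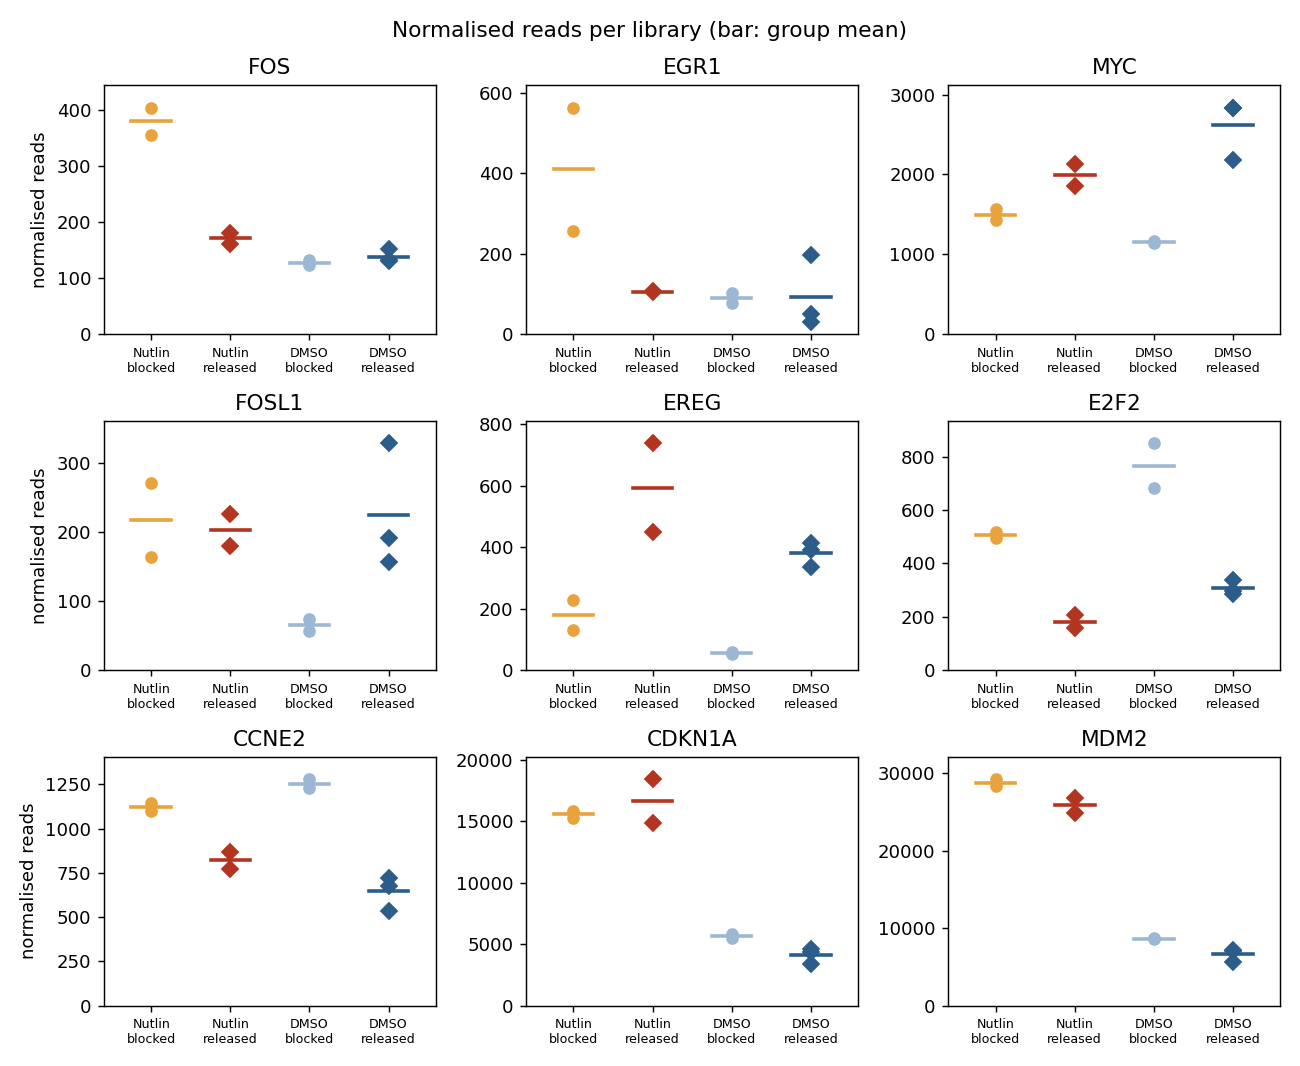
Normalised reads of 9 genes in each of 9 libraries, with points for libraries and bars for group means over 2 or 3 libraries, on axes that start at 0. FOS and EGR1 are highest in blocked Nutlin cells, while CDKN1A and MDM2 are higher in all 4 Nutlin libraries than in all 5 DMSO libraries.

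MYC, a driver of growth, had 1426 and 1562 in block and 1850 and 2125 after release with Nutlin (0.40 ± 0.15, adjusted p = 0.202). With DMSO it went from 1166 and 1141 to 2186, 2837 and 2830 (1.13, adjusted p = 0.000263). Its difference between releases was -0.74 (unadjusted p = 0.00294). FOSL1, another AP-1 subunit, had 271 and 163, then 179 and 226 with Nutlin, and 74.2 and 57.1, then 191, 328 and 156 with DMSO, a difference of -1.28 (unadjusted p = 0.00361). DUSP5, a phosphatase that restrains ERK, had 453 and 475, then 668 and 776 with Nutlin, and 199 and 118, then 551, 712 and 600 with DMSO. In all 3 genes both blocked Nutlin libraries were above both blocked DMSO libraries. Over the list, the median level on the log2 scale was 9.36 and 9.34 in blocked Nutlin cells, 8.85 and 8.85 in blocked DMSO cells, 9.45 and 9.71 in released Nutlin cells, and 9.43, 9.94 and 9.44 in released DMSO cells. The groups thus lay further apart in block than after release. The 9.94 is that of DMSO released replicate 2, 1 of the 2 libraries that stand apart from their groups. The part of the starting level in the difference was not tested.

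Inflammatory cytokines and feedback genes of NF-kB had a median of 0.41 over 25 tested, of which IL11 and BIRC3 rose, against 1.6% of all genes, and none fell. BIRC3, an inhibitor of apoptosis, went from 829 and 981 to 1539 and 2099 (0.95 ± 0.21, adjusted p = 0.0314), a call lost without any one of the 4 libraries (adjusted p = 0.0542 to 0.299). With 13 libraries 10 of 25 rose, against 6.3% of all genes. With DMSO 13 rose, against 4.11%, with a median of 0.50. TNFAIP3, which encodes the feedback protein A20, and NFKB1 differed by 0.59 and 0.47 under Nutlin (adjusted p = 0.0555 and 0.0588).

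Ribosome biogenesis factors and MYC targets mostly had higher values after release: 37 of 41 had a positive difference, against 7420 of 14298 genes, and the median was 0.29. NOLC1, a chaperone of the nucleolus, rose from 1471 and 1348 to 2059 and 1909 (0.48 ± 0.08, adjusted p = 0.00877), and RRS1, which assembles the large ribosomal subunit, from 498 and 417 to 917 and 764 (0.80 ± 0.14, adjusted p = 0.00886). They were the 2 of 41 called, against 1.6% of all genes that rose. Both calls were lost without blocked replicate 2 (adjusted p = 0.123 and 0.119) or released replicate 1 (adjusted p = 0.0795 and 0.0919). With 13 libraries 23 of 41 rose, against 6.3% of all genes. With DMSO 13 rose, against 4.11%, the median was 0.33 and the median difference between the releases was 0.00.

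The remaining lists had between 0 and 3 calls each. Where there were any, the share called was 4.88% for amino acid and unfolded protein genes, 8.11% for YAP, SRF and TGF-beta genes, 10% for clock genes, 3.12% for hypoxia genes and 3.03% for sterol genes, against 2.43% of all genes. Among 41 genes of the amino acid response and the unfolded protein response HERPUD1, which helps clear misfolded proteins, rose from 1454 and 1473 to 2404 and 2946 (0.84 ± 0.11, adjusted p = 0.00115, called in all 14 fits), and JDP2 fell (-0.73, adjusted p = 0.0279). Among 37 YAP, SRF and TGF-beta responsive genes ARHGEF2 and THBS1 rose (0.70 and 0.83, adjusted p = 0.011 and 0.0132) and WISP1 fell (-0.71, adjusted p = 0.0183). Of 20 clock genes ARNTL, the partner of CLOCK, rose from 380 and 328 to 704 and 664 (0.86 ± 0.13, adjusted p = 0.00282) and DBP fell (-0.66, adjusted p = 0.024). NDRG1 was the 1 of 32 hypoxia and glycolysis genes that rose (0.55, adjusted p = 0.0157), and LPIN1 the 1 of 33 sterol and fatty acid genes that fell (-0.41, adjusted p = 0.0402). None of 32 interferon, 22 heat shock and 27 FOXO genes was called. At an unadjusted p under 0.05 there were 6, 6 and 1 (18.8%, 27.3% and 3.7%), against 15.8% of all genes. With 13 libraries 4, 4 and 3 were called, against 10.8% of all genes. The calls for JDP2, ARHGEF2, THBS1, WISP1, DBP, NDRG1, LPIN1 and ARNTL were each lost without blocked replicate 2 (adjusted p = 0.056 to 0.246), and all of them but ARNTL also without at least 1 other library. That for THBS1 was also lost with quantile normalization.

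The release with DMSO shares no library with that under Nutlin, though both use the same estimate of spread. Deviations of same-numbered DMSO and Nutlin libraries from their group means had correlations of 0.325 to 0.351. The part of a shared replicate effect in the overlap below was not tested. It called 587 genes higher and 413 lower in the fit of 15 libraries, against 335 in all when each release was fitted on its own libraries. Of the 587, 580 had the same sign under Nutlin, against 51.9% of all genes, and 203 (34.6%) were also called higher there, against 1.6%. Of the 413, 404 had the same sign, against 48.1% of all genes, and 81 (19.6%) were called lower, against 0.832%. Their median differences were 0.68 with DMSO and 0.50 with Nutlin for the first set, and -0.55 and -0.39 for the second. A set chosen in 1 comparison tends to be larger there, so the reverse is given too. Of the 229 genes higher under Nutlin 228 had the same sign with DMSO, against 48.0% of all genes. Of the 229, 203 (88.6%) were called higher with DMSO, against 4.11%, and the medians of the 229 were 0.80 and 0.80. Of the 119 lower under Nutlin 118 had the same sign, against 52.0% of all genes, and 81 (68.1%) were called lower, against 2.89%. The medians of the 119 were -0.65 under Nutlin and -0.53 with DMSO. Across the 14298 genes the 2 differences had a Pearson r of 0.75, and 0.69 outside the histone list. Genes are not independent replicates, so this is a description.

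**Figure D4:**
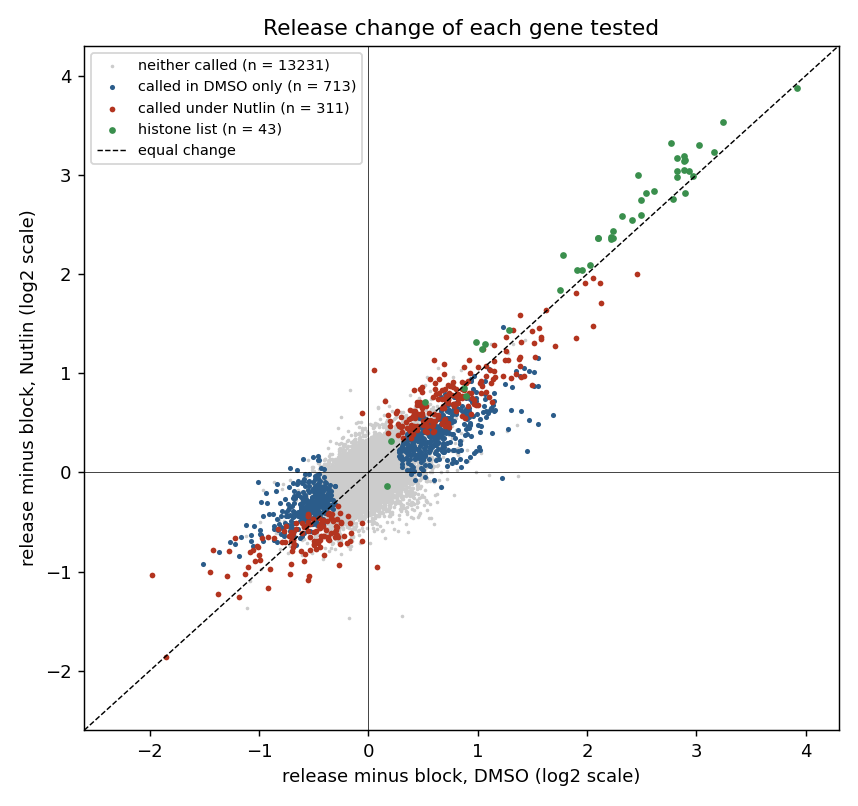
Difference between released and blocked cells with Nutlin (vertical axis) against that with DMSO (horizontal axis) for 14298 genes, both on the log2 scale, with calls and the histone list coloured and the dashed line marking equal change. Histone genes lie near the line up to 3.88 and 3.92 for HIST1H2BJ, and the 713 genes outside the histone list called with DMSO and not under Nutlin are in blue.

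Of the 348 genes called under Nutlin, 284 were called in both releases and 64 were not called with DMSO. With each release fitted on its own libraries 263 genes were called in both, 474 under Nutlin alone and 72 with DMSO alone. The signs were opposite in 2 of the 348. One was FOS. The other, MUM1L1, had 147 and 198 normalised reads in block and 254 and 321 after release with Nutlin (0.60 ± 0.15, adjusted p = 0.0476), and 212 and 196, then 207, 209 and 169 with DMSO (-0.06, adjusted p = 0.862). Among the 64, chosen after their values were seen, DAPK1, a kinase of cell death, went from 30.3 and 32.6 to 111 and 106 with Nutlin (1.03 ± 0.23, adjusted p = 0.0333) and had 18.2 and 27.6, then 32.2, 18.5 and 23.7 with DMSO. The difference between the releases was 0.99 (unadjusted p = 0.00745), not passing adjustment. PPP1R3C, a glycogen-targeting subunit of protein phosphatase, went from 469 and 540 to 823 and 909 with Nutlin (0.72 ± 0.13, adjusted p = 0.0102) and had 356 and 350, then 388, 386 and 419 with DMSO (unadjusted p of the difference 0.00599). The growth factor gene FGF2 rose by 0.62 with Nutlin (adjusted p = 0.0176) and differed by 0.26 with DMSO (adjusted p = 0.209). Over the alternatives the adjusted p under Nutlin reached 0.432 for MUM1L1, 0.258 for DAPK1, 0.167 for PPP1R3C and 0.149 for FGF2.

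A further 716 genes were called with DMSO and not under Nutlin, again with no called difference. Of them, 466 had an unadjusted p under 0.05 in the same direction under Nutlin, against 15.8% of all genes in either direction. The balance of 716 against 64 turned to 72 against 474 with each release fitted on its own libraries, so it depends on which libraries enter the fit. MEX3B, an RNA-binding protein gene chosen for having the smallest p of the difference (unadjusted p = 0.000344, adjusted p = 0.999), had 585 and 629, then 528 and 580 with Nutlin, and 535 and 560, then 320, 270 and 256 with DMSO. MEIS1, a homeobox gene with the next smallest (unadjusted p = 0.000396), had 477 and 541, then 437 and 429 with Nutlin, and 644 and 656, then 341, 302 and 294 with DMSO. In both the DMSO groups did not overlap and the difference under Nutlin was not called (adjusted p = 0.69 and 0.43).

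Some of the largest falls with DMSO were smaller under Nutlin, which a choice of genes by their fall with DMSO favours. Among all 413 genes lower with DMSO, 355 had a difference of smaller size under Nutlin. The p-values of the difference below rest in part on the DMSO values that chose the genes. ZXDA, an X-linked zinc finger gene, fell by 1.98 with DMSO and by 1.03 with Nutlin (unadjusted p of the difference 0.00123). TGFBR3, a co-receptor of TGF-beta, fell by 1.42 and 0.78 (unadjusted p = 0.00243). CRISPLD1 fell by 1.28 and 0.79 (unadjusted p = 0.0118). All 3 were called in both releases, and none of their differences passed adjustment. Under Nutlin the calls for TGFBR3 and CRISPLD1 were lost without blocked replicate 1 (adjusted p = 0.112 and 0.0922) or released replicate 2 (adjusted p = 0.0657 and 0.0559).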

How the data were processed

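RNA of U2OS cells was sequenced with a TruSeq kit as single reads of 50 bases, per the labels' protocols. The deposited table holds variance-stabilised log2 values of 23368 genes in 15 libraries, with size factors divided out by the authors. Per the submitters' processing notes, the tools included TopHat 0.9, HTSeq, CASAVA 1.8.2 and DESeq2 1.10.1, with hg19 as the build. Strand and annotation are not given in the sources used here, so overlapping and antisense genes cannot be told apart.

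Reads were recovered by inverting the transformation, with all libraries sharing a lowest value of 4.859 for 0 reads, and at least 99.04% of values per library lay within 0.05 of a whole read. A count of 0 allows up to 3 reads, for counting error only.

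A linear model with a mean for each of 6 groups was fitted to the 15 libraries in limma 3.58.1 (R 4.3.3), using eBayes with a mean-variance trend, two-sided tests and Benjamini-Hochberg adjustment over 14298 genes with at least 2 libraries 1 unit above the lowest value. The script was tested on simulated data. Named genes are the 12 largest rises and falls under Nutlin and 8 with DMSO among called, non-overlapping genes with a mean of at least 8 on the log2 scale, up to 4 per list by p, and fixed cell cycle and p53 genes. Members and lists were chosen with earlier results of these data known. Lists are described by counts and medians, with no set test. Alternatives were other sets of libraries, filters, voom on recovered reads, quantile normalization, no trend, the replicate block and leaving out each blocked or released library of the comparison. No asynchronous library was left out singly. Promoter windows are from RefSeq (GRCh38.p14) and transcripts from GENCODE v29 (GRCh38), matched by symbol, with no coordinates taken from the deposited table.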

Additional observations from a re-analysis of the deposited data

How the results depend on the processing

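The number of genes called for the release under Nutlin was 737 (468 higher, 269 lower) in the 4 libraries alone and 1542 (901 higher, 641 lower) with 13 libraries, against 348. For the release with DMSO it was 335 and 2028, against 1000. DMSO calls with the same sign under Nutlin numbered 333 and 1986, against 984, and those called in both 263 and 988, against 284. With 1 library left out the Nutlin release gave 71 to 121 genes (66 to 96 higher, 5 to 26 lower), the DMSO release 233 to 1112, DMSO calls of the same sign 232 to 1095 and those called in both 71 to 280. Where 1 library is left on a side it is assumed to vary like the other groups. The difference between releases called 0 genes in every fit. Leaving out a library also means fewer samples, but calls for the DMSO release rose from 1000 to 1112 without DMSO S-phase replicate 2. The cause of these shifts was not tested.

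Deviations of same-numbered libraries from their group means had correlations of 0.201 between blocked and released Nutlin cells. They were 0.132 and 0.197 between blocked and released DMSO cells, and 0.325 to 0.351 between DMSO and Nutlin cells. In a group of 2 libraries these deviations mirror each other, so replicates 1 and 2 give no independent values. All the correlations were positive, but they rest on few independent values. Whether same-numbered libraries deviated together is therefore left undecided, and a shared replicate effect is not excluded. With 2 pairs in the Nutlin comparison the numbers were not taken as a pairing. With the replicate block the Nutlin release called 450 genes (299 higher, 151 lower) and the DMSO release 1347.

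Small differences changed sign. With quantile normalization these were TOP2A (-0.11), HSPA8 (-0.08), CDKN1A (-0.23), SLBP (-0.04) and RRM2 (-0.15). SLBP was -0.01 with voom. With 1 library left out SLBP ranged from -0.08 to 0.08, CDKN1A from -0.06 to 0.24, PCNA from -0.13 to 0.01 and TXNIP from -0.14 to 0.03. Of 57 named genes that were called, 25 were called in all 14 fits. The median of all genes stayed between -0.01 and 0.03. The histone list's median was 2.46 with quantile normalization and 2.99 with voom.

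With 2 libraries a side, 10250815 to 20186510 reads each, a gene that was not called is not shown to be unchanged.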

Other observations

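Among the 24 core genes outside the histone list that rose, DHRS2, a short-chain dehydrogenase, had 6885 and 7413 normalised reads in block and 14549 and 15411 after release with Nutlin (1.06 ± 0.13, adjusted p = 0.00045), and rose by 0.87 with DMSO. Its released libraries were above its blocked libraries without overlap in both treatments. PDE4B, which breaks down cAMP, went from 125 and 128 to 267 and 305 (0.92 ± 0.14, adjusted p = 0.00232), and ZBTB2, a zinc finger repressor, from 801 and 770 to 1664 and 1333 (0.88 ± 0.10, adjusted p = 0.000389). They were chosen after their values were seen.

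None of the interferon list was called under Nutlin, with a positive difference in 10 and a negative one in 22 of the 32 tested. The members named here have its smallest p-values. OASL went up, at 45.4 and 31.9 normalised reads in block and 79.1 and 72.6 after release (0.55 ± 0.16, adjusted p = 0.0994). DTX3L and PARP9, which act as a pair in ADP-ribosylation, differed by -0.33 and -0.45 (adjusted p = 0.0917 and 0.166), with 1658 and 1688 against 1379 and 1271 normalised reads for DTX3L. IFIT1 had 83.8 and 91.9 in block and 53.2 and 24.2 after release (-0.72 ± 0.24, adjusted p = 0.137) and fell by 1.22 with DMSO (adjusted p = 0.00375).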
